A study of Mus musculus with 6 samples.

Results

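The gp130 family was followed here through 10 genes measured by RNA-Seq in primary mouse uterine stromal cells (mUSCs): the cytokine genes Lif, Il6, Il11 and Osm, the receptor genes Lifr, Il6st, Il11ra1 and Osmr, and the effectors Stat3 and Socs3. The members were a named list, matched by gene symbol to a table of 54232 genes, and all 10 were found, had reads and were tested. Cells were compared between 3 WT libraries and 3 libraries from conditional Pbrm1 knockout (Pbrm1 cKO) mice, to ask which genes depend on Pbrm1, a subunit of the PBAF form of the SWI/SNF chromatin remodeling complex. Both genotypes were taken on day 4 (D4) of pseudopregnancy at 8 to 12 weeks of age, and horns of 5 to 10 mice were described as pooled for a preparation. The controls are labelled WT, whereas the study describes them as Pbrm1 fl/fl, floxed mice without Cre. The knockout carries the same floxed allele with Cre expressed from the progesterone receptor locus (PR-IRES-cre), which is active in uterine epithelium as well as in stroma. Cells attached for 4 hours, the medium was changed, and RNA was taken 2 hours later. Nothing states that replicates were separate litters or days, so p-values measure the spread between these samples only.

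LIF, IL-6, IL-11 and oncostatin M are secreted cytokines that all signal through the shared receptor chain gp130, the product of Il6st. Each binds a partner chain (LIFR, the IL-6 receptor, the IL-11 receptor or OSMR), which joins gp130 and activates the JAK kinases bound to it and then STAT3, while SOCS3 is induced by STAT3 and restrains the same receptor. In the mouse uterus, LIF from the glands is needed for implantation, and IL-11 acts on the stroma as it turns into decidua. The counts below measure transcripts and do not show secreted protein or phosphorylated STAT3.

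Promoter sequence is shown for the members with a searched motif before a RefSeq start. RefSeq promoter windows, 250 bases before to 50 after a start on GRCm38.p6, were listed for 9 of the 10 members in 12 windows, and Osm had no entry. Letters were searched on both strands for a STAT site (TTCNNNGAA), an AP-1 site (TGANTCA), a C/EBP site (TTGCNNAA) and the NF-kappaB site. No motif match overlapped another in these windows. Each sequence is given 5′ to 3′ on the strand of the gene, stopping before any annotated exon, with motif matches in capitals.
Lif (chr11:4257318-4257556, plus strand, AP-1 in capitals): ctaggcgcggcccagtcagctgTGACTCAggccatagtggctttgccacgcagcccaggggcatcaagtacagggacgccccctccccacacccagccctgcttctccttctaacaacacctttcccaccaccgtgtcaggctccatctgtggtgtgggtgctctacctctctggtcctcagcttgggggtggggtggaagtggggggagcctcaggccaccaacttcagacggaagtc
Il6 (chr5:30012864-30013113, plus strand, AP-1, C/EBP and NF-kappaB in capitals, in that order): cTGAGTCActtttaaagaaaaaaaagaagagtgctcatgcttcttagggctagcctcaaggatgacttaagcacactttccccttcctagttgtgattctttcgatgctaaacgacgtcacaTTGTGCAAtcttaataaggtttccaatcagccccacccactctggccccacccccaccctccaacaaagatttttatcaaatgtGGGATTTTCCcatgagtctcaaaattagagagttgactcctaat
Il11 (chr7:4778142-4778391, minus strand, a RefSeq start inside the gene span, AP-1 in capitals): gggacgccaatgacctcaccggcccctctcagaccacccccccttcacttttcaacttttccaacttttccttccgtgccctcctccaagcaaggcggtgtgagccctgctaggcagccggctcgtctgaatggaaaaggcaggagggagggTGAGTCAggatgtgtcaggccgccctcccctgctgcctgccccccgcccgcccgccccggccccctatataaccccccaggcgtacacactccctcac
Socs3 (chr11:117969452-117969616, minus strand, a RefSeq start inside the gene span, STAT in capitals): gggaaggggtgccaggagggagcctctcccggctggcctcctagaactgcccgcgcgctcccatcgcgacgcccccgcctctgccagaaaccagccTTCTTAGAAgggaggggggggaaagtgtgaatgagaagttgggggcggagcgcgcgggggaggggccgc

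The AP-1 letters began 228 bases before the Lif start, 249 before the Il6 start and 98 before the inner of the Il11 starts. The window at the outermost Il11 start held none of the motifs. An AP-1 match also lay 3 bases past the Osmr start. AP-1 letters stood in 4 of the 12 member windows and in 7.81% of the 32851 windows of the whole RefSeq table. STAT letters stood in the Socs3 window only, 154 bases before the start, and in 8.3% of all windows. The C/EBP and NF-kappaB letters stood in the Il6 window only, 128 and 44 bases before its start, and in 10.8% and 4.51% of all windows. These matches describe letters in the sequence and are not binding sites.

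Total counts ranged from 13253575 to 18338667 per library, at which 3 counts correspond to 0.164 to 0.226 CPM. Pbrm1 itself was at 1354, 1385 and 1677 normalized counts (counts divided by the DESeq2 size factor of the library) in WT and at 397, 459 and 451 in the cKO. It fell by 1.76 on the log2 scale (SE 0.13, DESeq2 adjusted p = 5.19e-40). Stromal markers were abundant in both groups, and Vim, for vimentin, was at 31770 to 36870 in WT and 27270 to 29140 in the cKO. The libraries also held transcripts of other cells. WT replicate 1 stood apart from the other WT libraries, with the lowest summed level of macrophage, neutrophil, T and NK cell, epithelial and endothelial markers. The members and most lists are given with and without it.

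Among the 10 members, Lif, Osm and Socs3 were higher in Pbrm1 cKO mUSCs and none was lower at a DESeq2 adjusted p under 0.05. By DESeq2 1 member, Il6st, was lower at an unadjusted p under 0.05, and edgeR and limma voom called 0 lower. Across all 17471 genes tested the same threshold called 31.1%, with 15.9% higher and 15.2% lower. The 2 cytokine genes among the 3 carried the larger changes, 5.26-fold for Lif and 3.75-fold for Osm. Socs3 was 1.3-fold higher. The 4 receptor genes and Stat3 did not pass the test. In 6 members the 3 WT and the 3 cKO libraries did not overlap, against 48.6% of all genes tested. In 5 of the 10 members the groups did not overlap and the cKO was higher, against 24% of all genes tested. The median log2 difference over the members was 0.25, beside -0.000595 over all genes tested. In bulk RNA, fewer cells of a type and less RNA per cell cannot be told apart.

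**Figure D1:**
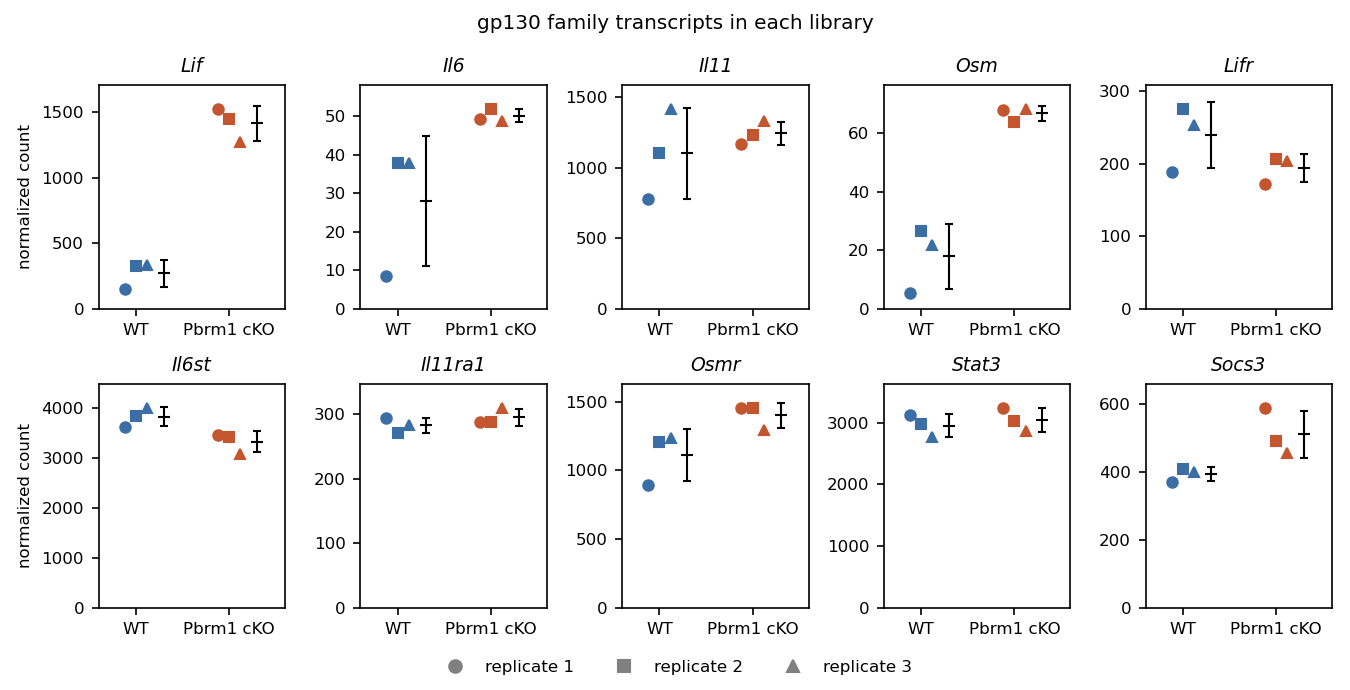
Normalized counts (y axis, from 0, scaled for each gene) of the 10 members in each of the 3 WT (blue) and 3 Pbrm1 cKO (orange) libraries, with shapes for the replicate number and bars for the mean ± SD. Lif, Osm, Il6, Osmr and Socs3 have every cKO library above every WT library, Il6st has every cKO library below, and WT replicate 1 is the lowest library for Lif, Il6, Il11, Osm, Osmr and Socs3.

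Lif (ENSMUSG00000034394.14, chr11:4257557-4272514, plus strand, GRCm38) encodes leukemia inhibitory factor, the gp130 cytokine that a mouse uterus needs at implantation. It was at 149, 326 and 332 normalized counts in WT and at 1528, 1445 and 1269 in the cKO. The lowest cKO library was several times the highest WT library. The means were 269 ± 104 and 1414 ± 133 (SD, n = 3 each), a log2 difference of 2.40 with SE 0.23 and 95% interval 1.93 to 2.86 (DESeq2 adjusted p = 1.78e-22). Without WT replicate 1 the log2 difference was 2.102. In D4 uteri the study reported the opposite direction, with Lif present in the glands of floxed controls and lost in the knockout. It reported that RT-qPCR of uteri went the same way. Those samples were uterine tissue with glands, whereas the counts here are from plated stromal cells.

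Osm (ENSMUSG00000058755.3, chr11:4236420-4241026, plus strand) encodes oncostatin M, a cytokine known chiefly from leukocytes that signals through gp130 with OSMR. Its level was low, at 5.34, 26.6 and 21.6 normalized counts in WT and 68.1, 63.9 and 68.5 in the cKO. The cKO libraries lay close together and above all WT libraries, while WT replicate 1 was far below the other two. The log2 difference was 1.91 (SE 0.43, 95% interval 1.06 to 2.76, DESeq2 adjusted p = 9.01e-05), and it was 1.47 without WT replicate 1 (DESeq2 adjusted p = 0.000347). Osm and Lif are neighbours on chromosome 11, with 16531 bases between them. The next protein-coding gene beyond Osm, Castor1, was not called (log2 difference 0.53, DESeq2 adjusted p = 0.371). On the other side Hormad2, 73300 bases from Lif, was barely detected, at a mean of 2.73 normalized counts.

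Il6 (ENSMUSG00000025746.11, chr5:30013114-30019981, plus strand) encodes interleukin 6, the inflammatory cytokine of the family. It was at 8.55, 37.7 and 37.8 normalized counts in WT and 49.3, 51.9 and 48.8 in the cKO. The groups did not overlap, and WT replicate 1 was far below the other WT libraries. The log2 difference of 0.84 (SE 0.46, 95% interval -0.06 to 1.74) did not pass the test (DESeq2 adjusted p = 0.164), and it was 0.41 without WT replicate 1 (DESeq2 adjusted p = 0.41).

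Il11 (ENSMUSG00000004371.14, chr7:4772373-4782857, minus strand) encodes interleukin 11, the stromal cytokine of decidualization. It was at 778, 1105 and 1419 normalized counts in WT and 1168, 1232 and 1329 in the cKO. The cKO libraries all lay inside the WT range. The log2 difference was 0.18 (SE 0.19, 95% interval -0.19 to 0.54, DESeq2 adjusted p = 0.54), so a change of about the size of the Lif change lay outside the interval. Its direction rested on single WT libraries, at -0.02 without WT replicate 1 and 0.40 without WT replicate 3 (DESeq2 adjusted p = 0.0305). Within each library, the ratio of Il11 to Lif in TPM (counts per gene length, scaled to a total shared by all libraries) was 11.3, 7.32 and 9.25 in WT and 1.65, 1.84 and 2.26 in the cKO. The 2 groups of ratios did not overlap (exact permutation test, two-sided, p = 0.1, the smallest p that 3 against 3 can give).

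Il6st (ENSMUSG00000021756.12, chr13:112464070-112510086, plus strand) encodes gp130 itself, the chain that every ligand above needs. Its normalized counts were 3622, 3848 and 4004 in WT and 3457, 3429 and 3079 in the cKO. All cKO libraries were below all WT libraries by a small margin. The log2 difference was -0.20 (SE 0.093, 95% interval -0.39 to -0.02), which did not pass the adjusted test (DESeq2 adjusted p = 0.0822). It passed without WT replicate 1 (log2 difference -0.24, DESeq2 adjusted p = 0.0203).

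Lifr (ENSMUSG00000054263.12, chr15:7090614-7197489, plus strand) encodes the chain that binds LIF. It was at 189, 276 and 254 normalized counts in WT and 173, 207 and 204 in the cKO, and the groups overlapped through WT replicate 1. The log2 difference was -0.30 (SE 0.19, 95% interval -0.67 to 0.07, DESeq2 adjusted p = 0.238), and without WT replicate 1 it was -0.45 and passed (DESeq2 adjusted p = 0.034). Both chains of the LIF receptor had log2 differences below 0, opposite to that of Lif.

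Osmr (ENSMUSG00000022146.12, chr15:6813577-6874969, minus strand) encodes the chain that binds oncostatin M. Its normalized counts were 891, 1206 and 1238 in WT and 1455, 1450 and 1296 in the cKO, with no overlap between the groups. The log2 difference of 0.33 (SE 0.14, 95% interval 0.06 to 0.61) stood just outside the threshold (DESeq2 adjusted p = 0.0562), and it was 0.196 without WT replicate 1 (DESeq2 adjusted p = 0.122) and 0.414, past the threshold, without WT replicate 3 (DESeq2 adjusted p = 0.0133). With the trend on gene length removed it was 0.162 (DESeq2 adjusted p = 0.426). Lifr and Osmr lie on the same chromosome, 215645 bases apart, and Lifr had a log2 difference of the opposite sign. The within-library ratio of Osmr to Lifr in TPM was 4.19, 3.88 and 4.33 in WT and 7.5, 6.23 and 5.66 in the cKO (exact permutation test, two-sided, p = 0.1). The ratio of Il6st to Lifr overlapped between the groups, at 13.5 to 18.6 in WT and 14.7 to 19.4 in the cKO (exact permutation test, two-sided, p = 0.6). Of the genes next to these receptors, Egflam, 8631 bases from Lifr, was lower (log2 difference -0.83, DESeq2 adjusted p = 4.78e-05), and Rictor, 13176 bases from Osmr, was higher (0.27, DESeq2 adjusted p = 0.0485).

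Il11ra1 (ENSMUSG00000073889.10, chr4:41699989-41769474, plus strand) encodes the IL-11 binding chain. It was at 294, 271 and 283 normalized counts in WT and 287, 288 and 310 in the cKO, with overlap, and the log2 difference was 0.06 (SE 0.14, 95% interval -0.21 to 0.33, DESeq2 adjusted p = 0.802). Without WT replicate 1 the log2 difference of Il11ra1 was 0.0883 (DESeq2 adjusted p = 0.713). Its value is uncertain, since Gm13305 and Il11ra2 match its transcript at 99.0% over 1654 and 1299 bases. Both were at 0 counts in every library, and reads that mapped to several places had been left out of the count.

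Stat3 (ENSMUSG00000004040.16, chr11:100885098-100939540, minus strand) encodes the transcription factor through which the receptors act. Its normalized counts were 3122, 2971 and 2761 in WT and 3239, 3023 and 2860 in the cKO. The groups overlapped, and the log2 difference was 0.04 (SE 0.096, 95% interval -0.15 to 0.23, DESeq2 adjusted p = 0.798), with a sign that turned under upper-quartile scaling (-0.01). Without WT replicate 1 the log2 difference of Stat3 was 0.0844 (DESeq2 adjusted p = 0.522). Of the genes around it, Stat5a, which overlaps it on the opposite strand, was not called (log2 difference -0.18), nor was Cavin1, 17193 bases away (0.04, DESeq2 adjusted p = 0.929). Stat5b, 34374 bases away, was higher (0.44, DESeq2 adjusted p = 0.000953).

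Socs3 (ENSMUSG00000053113.3, chr11:117966079-117970047, minus strand) encodes the feedback inhibitor of gp130 and carries the STAT letters shown above. It was at 370, 410 and 400 normalized counts in WT and 589, 490 and 455 in the cKO. The lowest cKO library was above the highest WT library, and the cKO libraries were the more spread. The log2 difference was 0.38 (SE 0.14, 95% interval 0.10 to 0.66, DESeq2 adjusted p = 0.0274). The call did not hold without cKO replicate 1 (0.27, DESeq2 adjusted p = 0.204), without cKO replicate 2 (0.41, DESeq2 adjusted p = 0.0826), without WT replicate 1 (0.335, DESeq2 adjusted p = 0.0636) or without WT replicate 2 (0.41, DESeq2 adjusted p = 0.0581), nor under upper-quartile scaling (0.32, DESeq2 adjusted p = 0.0601). The within-library ratio of Socs3 to Stat3 in TPM was 0.39, 0.454 and 0.477 in WT and 0.599, 0.534 and 0.524 in the cKO (exact permutation test, two-sided, p = 0.1).

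The order of the members by level was read in TPM within each group, since TPM shifted the median of all well-measured genes by 0.21 on the log2 scale between the groups, so single genes were not compared between them on that scale. Il11 was the most abundant member in both, at 102.9 ± 29.2 TPM in WT and 133.6 ± 4.65 TPM in the cKO (SD, n = 3 each). In WT it was followed by Il6st (64.9 ± 2.73) and Stat3 (58.4 ± 4.47), whose libraries overlapped, then Socs3 (25.6 ± 0.755) and Osmr (17.3 ± 2.67). Il11ra1 (11.9 ± 0.803) and Lif (11.6 ± 4.32) overlapped in WT, and Lifr (4.18 ± 0.693), Il6 (2.16 ± 1.28) and Osm (1.47 ± 0.894) were the lowest, the last pair overlapping. Lif moved from the seventh place in WT to the second in the cKO, at 70.5 ± 8.65 TPM, where it overlapped Stat3 (69.2 ± 6.35), which in turn overlapped Il6st (64.9 ± 5.94). Osm moved from the last place to the eighth, at 6.37 ± 0.273 TPM, and Lifr became the lowest, at 3.9 ± 0.313 TPM.

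**Figure D2:**
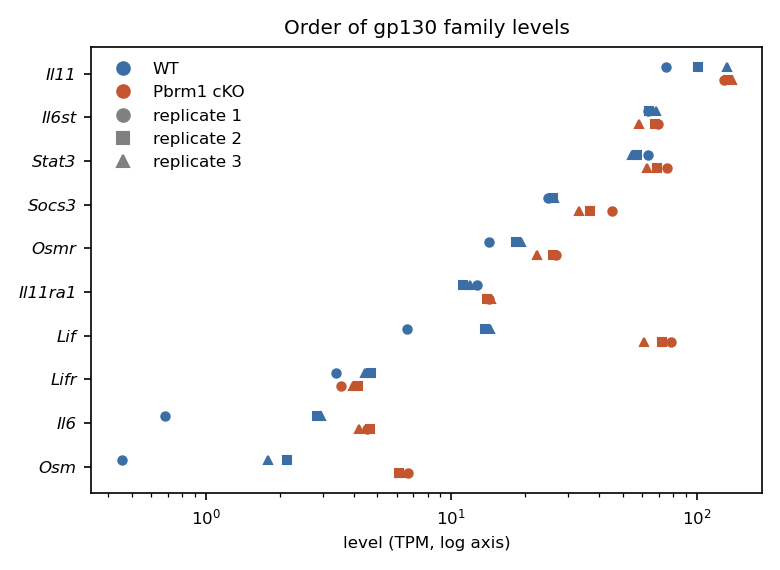
Level in TPM (x axis, log scale) of each member in the 3 WT (blue) and 3 Pbrm1 cKO (orange) libraries, with shapes for the replicate number and genes ordered from top to bottom by the WT mean. Il11 is the highest in both groups, and Lif stands beside Il11ra1 in the WT order and beside Stat3 and Il6st in the cKO order.

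The wider pathway was read from a fixed list of 35 further genes, of which 33 had reads and 30 were tested. In the cKO 11 were higher, 1 was lower and 18 were not called, and their median log2 difference was 0.19. Over all genes tested 15.9% were higher and 15.2% lower. Without WT replicate 1, 10 of the list were higher and 1 lower. Among the further ligand genes, Clcf1 and Ebi3 were higher. Clcf1, the cardiotrophin-like cytokine that signals through gp130 and LIFR, was at 501, 435 and 409 normalized counts in WT and 673, 633 and 636 in the cKO (log2 difference 0.53, SE 0.12, DESeq2 adjusted p = 0.000175). Ebi3, a chain of IL-27, was nearly undetected in WT at 1.07, 3.33 and 5.41 and stood at 20.7, 16.8 and 18.8 in the cKO (DESeq2 adjusted p = 0.00285). Ctf1 was not called, and Cntf, Il27 and Il31 were too low to test.

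Of the further receptor genes, Il6ra was called. Il6ra, the IL-6 binding chain, was at 229, 241 and 441 normalized counts in WT and 749, 758 and 680 in the cKO, with no overlap (log2 difference 1.26, SE 0.22, DESeq2 adjusted p = 1.64e-07). The ratio of Il6ra to Il6st within a library, in TPM, was 0.0811, 0.0804 and 0.141 in WT and 0.278, 0.284 and 0.284 in the cKO (exact permutation test, two-sided, p = 0.1). Adam17, the protease that sheds the IL-6 receptor from the cell surface, was at 887, 848 and 870 in WT and 1668, 1581 and 1587 in the cKO (log2 difference 0.89, SE 0.092, DESeq2 adjusted p = 2.12e-20). The related protease gene Adam10 was not called. Cntfr and Il27ra were near the floor of detection and were not called, and Il31ra was too low to test.

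Of the kinase and STAT genes, Tyk2 (log2 difference 0.45, DESeq2 adjusted p = 0.00669) and Stat5b were higher, and Jak1 (0.18), Jak2 (-0.11) and Stat5a (-0.18) were not called. Among the adaptors that link gp130 to the RAS and ERK pathway, Ptpn11 (0.38, DESeq2 adjusted p = 0.0055) and Grb2 (1.16, DESeq2 adjusted p = 0.04) were higher, and Gab1 and Sos1 were not called. Grb2 was uneven in WT, at 140, 206 and 423 normalized counts, and was not called without WT replicate 1 (0.86, DESeq2 adjusted p = 0.0551). Of 11 genes that restrain the pathway, 2 were higher, a share near the 15.9% of all genes tested. Ptpn6, a phosphatase gene known from blood cells, was at 40.6, 84.4 and 111 in WT and 451, 436 and 480 in the cKO (log2 difference 2.53, SE 0.26, DESeq2 adjusted p = 2.34e-20). Cish, an inhibitor induced chiefly by STAT5, was low throughout, at 8.55, 11.1 and 18.4 in WT and 42.4, 41.5 and 26.3 in the cKO (DESeq2 adjusted p = 0.00516). Socs1, Socs2, Socs4, Socs5, Socs6, Socs7, Pias1, Pias3 and Ptpn2 were not called.

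**Figure D3:**
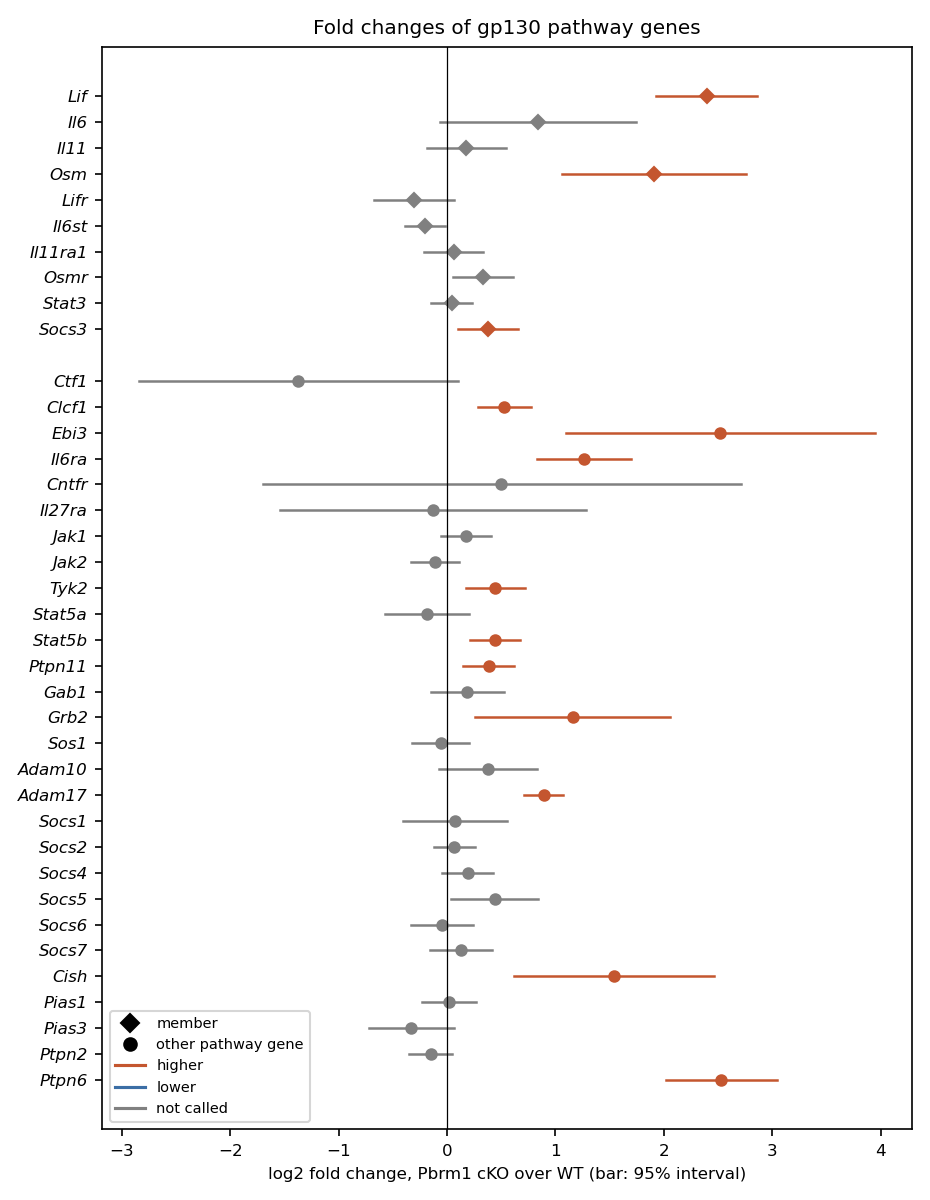
Log2 fold change of Pbrm1 cKO over WT (x axis) with its 95% interval (bar) for the 10 members (diamonds) and further pathway genes tested (circles), orange where higher, blue where lower and grey where not called at an adjusted p under 0.05. The largest changes of the members are Lif at 2.40 and Osm at 1.91, and of the further genes shown Ptpn6 at 2.53 and Ebi3 at 2.52 lie farthest above 0.

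A fixed list of 21 genes known as STAT3 targets held 20 that were tested, of which 9 were higher and 2 lower, with a median log2 difference of 0.23, beside 15.9% higher and 15.2% lower over all genes tested. The acute-phase gene Saa3 was the most increased, from 9.62, 36.6 and 49.7 normalized counts in WT to 132, 118 and 165 in the cKO (log2 difference 2.11, DESeq2 adjusted p = 1.86e-06). The monocyte chemokine gene Ccl2 followed (1.34, DESeq2 adjusted p = 0.00314), then the lipocalin gene Lcn2 (1.19, DESeq2 adjusted p = 0.00805) and the growth regulator Myc (1.0, DESeq2 adjusted p = 5.82e-13). Cebpd, a transcription factor gene induced by STAT3, was lower, from 174, 244 and 208 to 84.8, 71.9 and 76 with no overlap (log2 difference -1.43, DESeq2 adjusted p = 1.75e-10). The survival gene Bcl2l1 was also lower (-0.52, DESeq2 adjusted p = 0.00449). Without WT replicate 1 the list again had 9 higher and 2 lower, with log2 differences smaller in size for Saa3 (1.67), Ccl2 (1.03), Lcn2 (0.77) and Bcl2l1 (-0.302). Most of these genes answer to other factors too, and their changes are no measure of STAT3 activity.

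Immediate early genes, the first to answer growth factors, stress and cell isolation, some of which encode AP-1 proteins, were read beside the AP-1 letters of the Lif, Il6 and Il11 promoters. Of 10 on the list, 8 were higher and 1 lower in the cKO, with a median log2 difference of 0.83, beside 15.9% higher and 15.2% lower over all genes tested. Fosb (1.4), Atf3 (1.38), Egr1 (1.29) and Egr2 (1.1) rose most, and Jund was lower. Without WT replicate 1, 7 were higher and 1 lower. Fos and Junb, held in the STAT3 target list, were singled out here after their values were seen. Fos was not called (log2 difference -0.08, DESeq2 adjusted p = 0.792), and Junb was higher (0.337, DESeq2 adjusted p = 0.00188). The part of the immediate early genes in the Lif result was not tested.

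Markers of some other cell types, macrophages above all, were higher in the cKO, as Lif and Osm were, and their counts stand beside 15.9% higher and 15.2% lower over all genes tested. All 12 macrophage markers were higher in the cKO (median log2 difference 2.16), and their summed level was 4657 to 10280 normalized counts in WT and 39530 to 41110 in the cKO. Lyz2 and Cd74 were the most abundant of them. Of 8 neutrophil markers 3 were tested and all 3 were higher, with sums of 88.7 to 123 in WT and 596 to 608 in the cKO, but Cxcr2 was at 0 in every library and Ly6g, S100a9, Retnlg and Camp were near 0. T and NK cell markers were scarce, at sums of 10.7 to 19.5 and 26.3 to 43.4, and of the 4 tested 0 were called by DESeq2, with 1, Cd3d, at an unadjusted p under 0.05. Of 12 epithelial markers 4 were higher, with sums of 1953 to 3424 in WT and 3752 to 3890 in the cKO, and the gland marker Foxa2 was near 0 throughout. Endothelial markers summed to 1575 to 4530 in WT and 1410 to 1580 in the cKO, with 3 of 8 lower and 1 higher. Smooth muscle markers summed to 54780 to 58570 in WT and 52470 to 54640 in the cKO, with 3 of 8 lower. That sum was mostly Tagln and Des, while Myh11, Lmod1, Actg2 and Cnn1 were scarce, at WT means of 82.2, 67.6, 43.9 and 28.7. Mesothelial markers were scarce, at sums of 10.7 to 53.3 and 56.3 to 70.3, and of 5 tested 0 were called by DESeq2 and 0 had an unadjusted p under 0.05. Stromal markers summed to 112800 to 130500 in WT and 87740 to 94290 in the cKO, with 6 of 14 lower and 1 higher. Without WT replicate 1 all 12 macrophage markers were again higher, and the lower counts became 6 of 8 endothelial, 5 of 8 smooth muscle, 1 of 12 epithelial and 8 of 14 stromal markers, with 2 stromal markers and 2 neutrophil markers higher.

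The cytokine genes were therefore set against Ptprc, the gene for the leukocyte antigen CD45, within each library. Ptprc was at 172, 370 and 325 normalized counts in WT and 1138, 1070 and 1105 in the cKO (DESeq2 adjusted p = 4.34e-17). The ratio of Osm to Ptprc in TPM was 0.25, 0.581 and 0.536 in WT and 0.482, 0.482 and 0.499 in the cKO. These overlapped through WT replicate 1 only (exact permutation test, two-sided, p = 1.0), and both other WT ratios were above every cKO ratio. Without WT replicate 1 the log2 differences were 1.47 for Osm and 1.67 for Ptprc. The ratio of Il6 to Ptprc was 0.375, 0.77 and 0.877 in WT and 0.327, 0.366 and 0.333 in the cKO, lower in all 3 cKO libraries (exact permutation test, two-sided, p = 0.1). The ratio in WT replicate 1 was just above the highest cKO ratio and rested on 8 Il6 counts. Only Ptprc was set against Il6, and the macrophage marker Cd14 had a log2 difference (0.944) near that of Il6 (0.837). The ratio of Lif to Ptprc was 3.63, 3.72 and 4.29 in WT and 5.66, 5.69 and 4.83 in the cKO, higher in all 3 (exact permutation test, two-sided, p = 0.1). Against the epithelial keratin gene Krt8, Lif was at 0.185, 0.25 and 0.312 in WT and 1.01, 0.947 and 0.844 in the cKO (exact permutation test, two-sided, p = 0.1). Macrophage markers spanned the 5.26-fold difference of Lif, since the 12 ran from 1.92-fold for Cd14 to 8.29-fold for Cd74. Among epithelial markers Ltf was 7.14-fold higher, but the others tested ran only from 0.827-fold for Krt18 to 2.6-fold for Krt19. The part of leukocytes or epithelium in the Lif level was not tested.

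**Figure D4:**
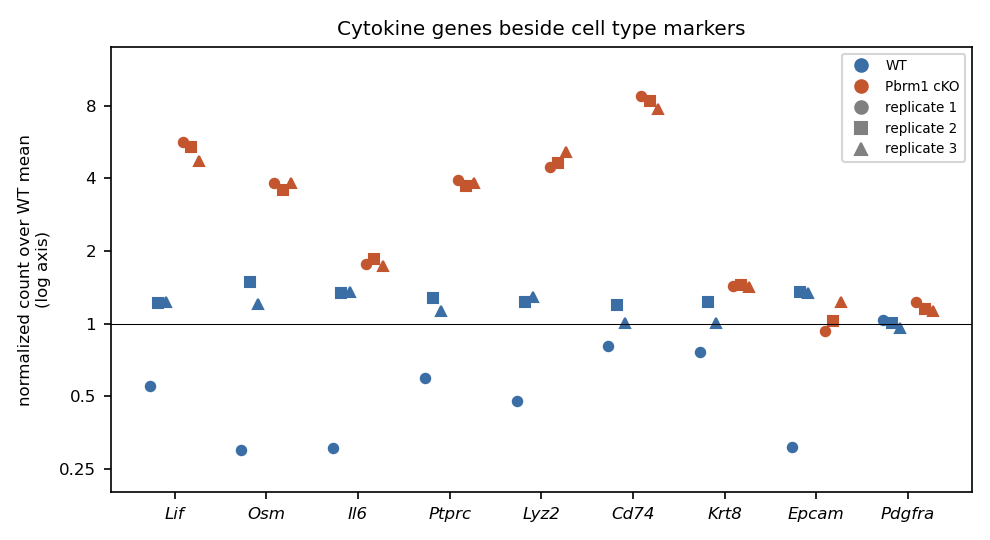
Normalized count divided by the WT mean of the same gene (y axis, log scale) in each WT (blue) and Pbrm1 cKO (orange) library, with shapes for the replicate number, for 3 cytokine genes, the leukocyte genes Ptprc, Lyz2 and Cd74, the epithelial genes Krt8 and Epcam and the stromal gene Pdgfra. Lif, Osm and the leukocyte genes are high in all 3 cKO libraries, and WT replicate 1 is the lowest WT library for every gene shown but Pdgfra.

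The genes whose pattern over the 6 libraries was most like that of a member were found by the root mean square difference of centered log2(normalized count + 1) among 10986 genes with a mean of at least 50. For Lif these were Itgb2 (0.09), a leukocyte integrin gene, Arhgap30 (0.0919) and Rassf4 (0.097). For Socs3 they were Xylt2 (0.0522), Fntb (0.0523) and Ankfy1 (0.054), and for Osmr Ell2 (0.0306), Agtrap (0.044) and Wasl (0.0469). For Il11 they were Terf1 (0.0598), Fkbp1a (0.0631) and Serf1 (0.0707), and for Il6st the first were Ahi1 (0.0238) and Zfp738 (0.0333). With 6 libraries in 2 groups, such likeness can reflect the difference between the groups or the spread of single libraries, and these were not separated.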

How the data were processed

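The authors trimmed reads with cutadapt, aligned them with HISAT2 to GRCm38 and deposited 1 table of raw featureCounts counts per gene (version 1.6.4, GENCODE M18, reads counted on the reverse strand, reads mapping to several places left out). The labels describe a total RNA kit with depletion and the study's methods describe mRNA purification. Gene IDs were named from GENCODE M21 (99.7% matched). All genes were fitted with DESeq2 1.42.0 in R 4.3.3, the study's tool, as Pbrm1 cKO against WT, with Benjamini-Hochberg adjustment over all genes tested. Alternatives were edgeR 4.0.16, limma 3.58.1, other size factors, filters and thresholds, a replicate block and leaving out each library. On simulated counts of 28552 genes with 200 changed, DESeq2 recovered 66% of those changed by 1 on the log2 scale and 90% of those changed by 2, with 27 false calls. Those false calls were a larger share of the calls than an adjusted p under 0.05 nominally allows. Far fewer genes were changed there than the 31.1% called in the data, so recovery in the data may differ. TPM used the gene lengths in the table, and intervals are log2 difference ± 1.96 SE. Promoters are from RefSeq, read only as sequence.

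The members and lists were chosen with earlier results of these data known. Named were all members, wider pathway genes, the extreme called STAT3 target and immediate early genes with a mean of at least 50, the 2 most abundant and the undetected markers, neighbours, near copies and the 3 most similar genes. Foxa2, Epcam, Cd14, Ltf, Krt19, Pdgfra, Myh11, Lmod1, Actg2, Cnn1 and the markers near 0 were singled out after their values were seen. Replicates of a group differed by more than sampling noise, so each was counted. The total count per library, 13253575 to 18338667, sets the precision. A few genes counted in the lists are not reported here by name.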

Additional observations from a re-analysis of the deposited data

How the results depend on the processing

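Lif and Osm kept direction and call under all 15 alternatives, with log2 differences of 2.102 to 2.572 (adjusted p 4.47e-61 to 0.000113) and 1.469 to 2.308 (4.79e-05 to 0.00605), as did Il6 and Il11ra1 without a call. Adding the near copies of Il11ra1, at 0 counts in every library, could not change its value and is not counted among these alternatives. Socs3 lost its call in 7 of 15: log2 difference 0.323 under upper-quartile size factors, 0.378 under the study's filter (fold above 1.5, p under 0.01, adjusted p under 0.1), 0.372 with the replicate block, and on leaving out any library but cKO replicate 3 (0.459) or WT replicate 3 (0.388), where it held, over a range of 0.271 to 0.459. Same-numbered libraries had deviations correlated at 0.1138, -0.0515 and 0.0028, a check too weak with 3 libraries per group to exclude pairing. The samples were treated as unpaired, and the replicate block changed no other member's call.

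Osmr passed at 0.345 with TMM size factors and 0.349 with limma voom (0.196 to 0.414 leaving out 1 library). Il6st passed as lower at -0.258 with upper-quartile size factors and -0.359 with the trend on gene length removed, an alternative chosen after seeing the data (-0.242 to -0.147 leaving out 1 library). Either gave 1 lower member. Lifr ranged from -0.447 to -0.191 and Il11 from -0.024 to 0.397 on leaving out 1 library. Stat3 turned sign at -0.013 (upper quartile), -0.091 (length trend removed), -0.00017 (without cKO replicate 1) and -0.006 (without WT replicate 3), within -0.006 to 0.09 over libraries left out. Leaving out 1 library gave 2 to 5 higher members (5 without WT replicate 3), 0 to 2 lower (2 without WT replicate 1), 6 to 13 higher genes of the wider pathway (7 without cKO replicate 1, 6 without cKO replicate 2), and 1924 to 2926 higher and 1801 to 2659 lower genes in all. The study's filter gave 1665 higher and 1452 lower genes, 5 higher pathway genes and 1 lower STAT3 target. The cause of these shifts was not tested. Osm, Il6 and Ebi3 are limited by depth, at as few as 5, 8 and 1 counts in WT replicate 1.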
